A study of Mus musculus with 8 samples.

Results

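The genes described here are 40 enzymes and binding proteins that write, read or remove methyl groups on DNA and acetyl or methyl groups on histones. They were chosen by name, as the DNA methylation, deacetylase, acetyltransferase and histone methylation genes of a list drawn up for these data. All 40 were found by symbol among the 54735 genes of the count table, and all 40 were among the 16538 genes with enough counts to be tested. Their roles fall into 11 groups, from 3 DNA methyltransferases to 2 histone demethylases.

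Cells mark cytosines next to guanines (CpG sites) with methyl groups, which DNA methyltransferases add, TET dioxygenases oxidize as a step toward removal, and methyl-CpG-binding proteins recognize. Histone tails carry acetyl groups that acetyltransferases add and deacetylases remove, and methyl groups that methyltransferases such as Polycomb repressive complex 2 add and demethylases remove. Neurons keep many of these enzymes after their last division, so that chromatin in brain tissue can be rewritten in cells that no longer replicate their DNA.

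RNA was sequenced from punches of the ventral tegmental area (VTA), the midbrain region that holds dopamine neurons, of male DBA2/J mice labelled P21 for age. The study asked what social stress (SS) in early life does to the transcripts of this region. SS pups had spent 30 min per day from postnatal day 14 to 21 with an unfamiliar, gonadectomized adult CD1 male, and control (CTR) pups had stayed unhandled. The study's methods place sacrifice on the day after the last exposure. Libraries are named after the numbers in their labels, which are 1, 2, 3 and 5 for CTR and 2, 3, 4 and 5 for SS, and values are given in that order.

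Library totals were 20036086, 25399538, 23512478 and 39569142 counts in CTR, and 41509698, 47319997, 26024301 and 25248618 counts in SS. Levels are given as CPM, counts scaled to library size (per 1e+06) after TMM normalization, and differences as log2 fold changes of SS relative to CTR. A pair of libraries went against their label. Xist, the RNA of the inactive X chromosome, had 14997 counts in CTR-5 and 6551 in SS-5, where the genes of the Y chromosome (Uty, Kdm5d, Ddx3y, Eif2s3y) summed to 3 and 0 counts, although both mice are labelled male. CTR-1 and CTR-2 were also less rich than the others, with a count for 17446 and 17738 genes compared with 19328 to 23172 genes in the other 6 libraries. CTR-5 and CTR-2 further differed in a transcript of other tissue, with 403 and 243 CPM of the cortical excitatory neuron gene Slc17a7, compared with 13.9 to 64.5 CPM in the other 6 libraries. CTR-5 also had 234 CPM of the choroid plexus gene Ttr, compared with at most 18.8 CPM in any other library. Results are given over all 8 libraries, and for many members also without 1 or more of these libraries.

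Not one of the 40 genes passed the threshold between SS and CTR. In the quasi-likelihood test of edgeR, adjusted after Benjamini-Hochberg over all genes tested, 0 of 40 had an adjusted p under 0.05, where 14 of 16538 genes (0.0847%) did. DESeq2 with default options called 0 of 40 as well, beside 81 of 19349 genes (0.419%), and limma voom called 0 of 40 beside 17 of 16538 genes. The smallest adjusted p among the 40 belonged to Dnmt1 with both tools, at 0.65 for edgeR's quasi-likelihood test and 0.0983 for DESeq2. In these bulk samples fewer cells of a type and less RNA per cell cannot be told apart, which holds for every value given here.

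Below the threshold, more of the 40 genes leaned toward SS than away from it. At an unadjusted p under 0.05 there were 7 of 40 (17.5%), compared with 6.55% of all genes tested and 7% of the 14368 genes within the same range of mean CPM. Of the 7, Dnmt1, Dnmt3a, Hdac7, Sirt4 and Kdm6b were higher in SS, 5 of 40 beside a background of 2.85%, and Mbd3 and Sirt3 were lower, 2 of 40 beside 3.7%. In the 8 fits that each leave out 1 library, Dnmt1 and Kdm6b kept an unadjusted p under 0.05 in 8, Mbd3 and Hdac7 in 6, Sirt3 in 4, Dnmt3a in 2 and Sirt4 in 1. The SS and CTR values did not overlap for 3 of 40 genes (7.5%), compared with 4.67% of all genes. Dnmt1 and Kdm6b were higher in every SS library, where 2.47% of all genes were, and Mbd3 was lower in every SS library, where 2.21% were. The log2 fold change was above 0 for 30 of the 40 genes (75%), with a median of 0.15, compared with 50.6% of all genes and a median of 0.0037. These shares describe the list and are not a test of it.

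The precision allows a statement on size. For 34 of the 40 genes the 95% interval of the log2 fold change lay within -1 and 1, and for 14 it lay within -0.5 and 0.5. A doubling or halving was thus outside the interval for most members, while smaller differences stayed inside it for most of them. The median standard error (SE) was 0.17 on the log2 scale, compared with 0.21 over all genes tested.

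**Figure D1:**
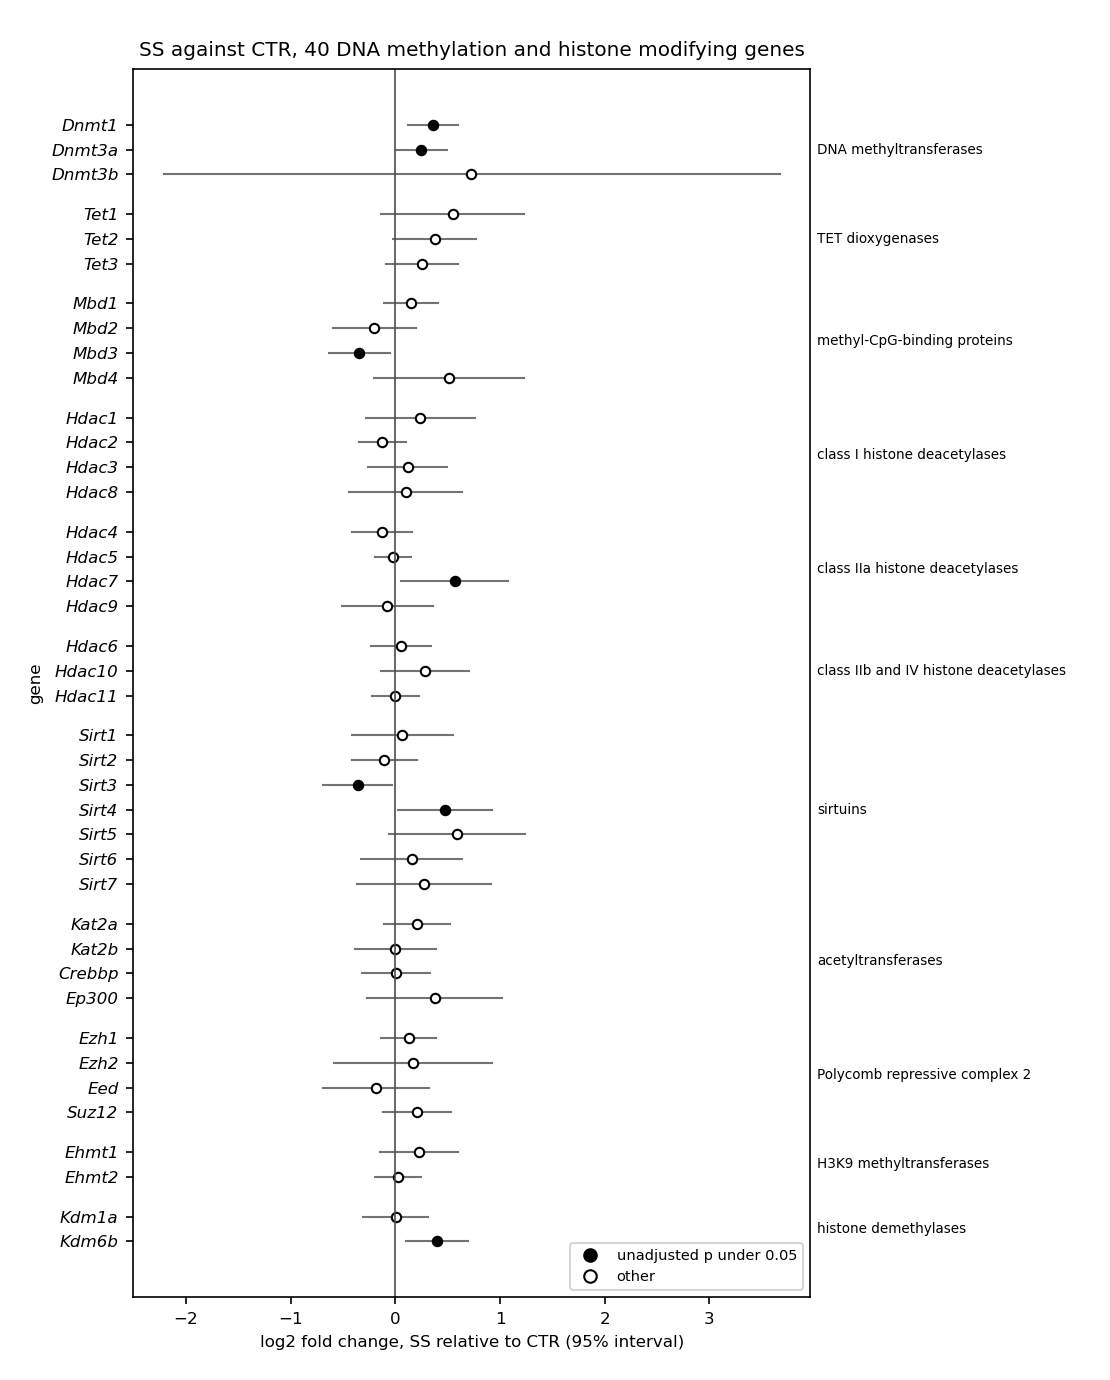
Log2 fold change of SS relative to CTR for each of the 40 genes, grouped by role, with its 95% interval from edgeR's quasi-likelihood fit over 4 CTR and 4 SS libraries. Filled points mark the 7 genes with an unadjusted p under 0.05, and Dnmt3b has the widest interval, from -2.21 to 3.67.

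Before the groups are compared, the levels themselves are of use, because they show which of these enzymes the punched tissue transcribed. Divided by the kilobases (kb) of annotated exon, the mean level over the 8 libraries ran from 0.202 CPM per kb for Dnmt3b to 112 CPM per kb for Hdac11. Only 11 of the 40 genes exceeded 10 CPM per kb, 28 lay between 1 and 10, and Dnmt3b alone lay under 1. Hdac11 was followed by Sirt2 at 82.7, Mbd3 at 46.2, Ehmt2 at 33.0, Hdac3 at 25.5 and Hdac5 at 23.6 CPM per kb. The enzymes that erase marks from DNA were near the other end, with Tet3 at 3.04, Tet2 at 1.90 and Tet1 at 1.16 CPM per kb. Between paralogs, Hdac2 at 18.4 exceeded Hdac1 at 3.08 CPM per kb, and Ezh1 at 9.18 exceeded Ezh2 at 1.07 CPM per kb. The value of Hdac1 is uncertain, because 52.5% of the 75-base windows of its longest transcript also occur in annotated copies such as Gm10093 and Gm4864, so that reads could be split or left uncounted.

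**Figure D2:**
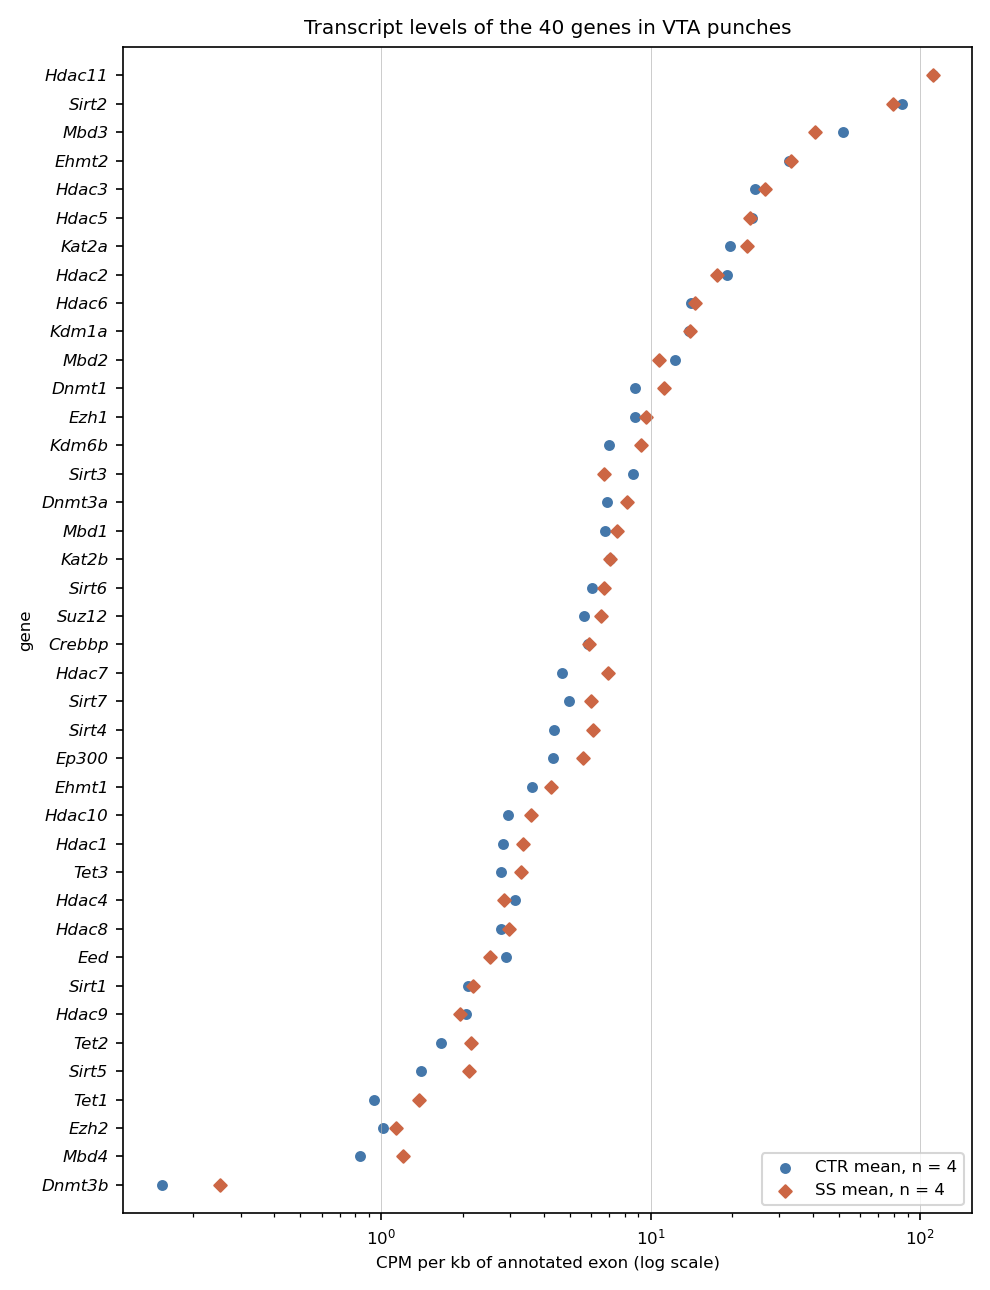
Mean level of each of the 40 genes in CPM per kb of annotated exon on a log scale, as circles for CTR and diamonds for SS (n = 4 libraries each). The order is by the mean over all 8 libraries, and the distance between the groups is small beside the 554-fold span from Dnmt3b to Hdac11.

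Among the DNA methyltransferases, Dnmt1, the maintenance enzyme that copies methylation onto a newly made strand, had the smallest p of the 40 genes. Dnmt1 was at 55.5, 63.6, 73.1 and 64.7 CPM in the controls and at 82.1, 81.5, 82.5 and 83.8 CPM in the SS libraries. The 4 SS libraries lay close together and all of them lay above the highest CTR library, CTR-3. The means were 64.2 ± 7.16 CPM for CTR and 82.5 ± 0.95 CPM for SS (SD of 4 libraries each), and the log2 fold change was 0.36 (SE 0.11, 95% interval 0.13 to 0.60). It was higher in 4 of 4 SS libraries but did not pass the correction over all genes (edgeR's quasi-likelihood adjusted p = 0.65), and the exact two-sided permutation p of 0.0286 is the smallest that 4 against 4 libraries allow. Dnmt1 kept an unadjusted p under 0.05 in each of the 8 fits without 1 library, with log2 fold changes from 0.30 without CTR-1 to 0.42 without CTR-3. Over 21 alternatives its adjusted p ranged from 0.0983 with DESeq2 to 0.999 without SS-3. Dnmt1 is used for replication in dividing cells, and the part of such cells in its values was not tested. Mki67 averaged 1.59 CPM in CTR and 2.73 CPM in SS. It had no count in CTR-1 and CTR-2, 97 and 85 counts in CTR-3 and CTR-5, and 54 to 158 counts in the SS libraries. Top2a averaged 0.945 and 1.38 CPM, and Pcna, which also acts in DNA repair, 25.4 and 23.1 CPM. Ccnb1 and Cdk1 were below the filter on low counts.

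Dnmt3a and Dnmt3b place methyl groups on unmethylated DNA. Dnmt3a was at 103, 103, 121 and 129.6 CPM among controls, and SS libraries had 126, 136, 152 and 129 CPM. CTR-5 lay above SS-2 and SS-5, and the other 3 CTR libraries lay below every SS library. Its log2 fold change was 0.25 (SE 0.11, 95% interval 0.0070 to 0.49), with edgeR's quasi-likelihood adjusted p = 0.755 and an exact permutation p of 0.0857. Without CTR-1 and CTR-2 it was 0.11. Dnmt3b had no count in CTR-2 and in SS-4, which allows up to 0.118 and 0.115 CPM there (3 counts of the total, counting error only), and between 12 and 80 counts in the other 6 libraries. Its log2 fold change of 0.73 (SE 1.35, 95% interval -2.21 to 3.67) leaves the direction undetermined (1.60 without CTR-1, 0.32 without CTR-2), and 7.72% of its windows are shared with Dnmt3c.

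The stretch before the annotated starts is shown for Dnmt1 and Mbd3, members whose SS and CTR values did not overlap, with the CpG sites at which DNA methyltransferases act. Methylation itself was not measured, and which of these starts were in use in the punches was not tested. The sequences are from RefSeq (GRCm38.p6), 250 bases upstream of a start on the minus strand, written 5′ to 3′ with each CpG in capitals. The Dnmt1 windows lie at chr9:20959889-20960138 and chr9:20952980-20953229 and hold no annotated exon base. The Mbd3 window lies at chr10:80399532-80399781, and 19 of its bases overlap an annotated exon.
Dnmt1, outer start: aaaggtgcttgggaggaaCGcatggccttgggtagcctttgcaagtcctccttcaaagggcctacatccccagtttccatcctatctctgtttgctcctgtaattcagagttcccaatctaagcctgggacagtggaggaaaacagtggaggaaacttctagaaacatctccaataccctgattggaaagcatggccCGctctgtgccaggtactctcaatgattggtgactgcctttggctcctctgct
Dnmt1, middle start: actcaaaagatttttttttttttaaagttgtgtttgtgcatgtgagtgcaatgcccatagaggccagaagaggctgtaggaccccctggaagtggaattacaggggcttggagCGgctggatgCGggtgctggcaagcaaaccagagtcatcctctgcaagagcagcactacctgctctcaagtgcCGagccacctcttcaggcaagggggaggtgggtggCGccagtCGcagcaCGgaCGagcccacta
Mbd3: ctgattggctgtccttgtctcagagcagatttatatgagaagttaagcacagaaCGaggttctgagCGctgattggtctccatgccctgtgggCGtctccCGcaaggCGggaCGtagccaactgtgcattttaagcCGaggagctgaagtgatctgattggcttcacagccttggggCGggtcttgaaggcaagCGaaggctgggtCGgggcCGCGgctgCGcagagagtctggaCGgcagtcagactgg
The outer Dnmt1 window holds 2 CpG sites and the middle one 7, while the window of the innermost start, at chr9:20952624-20952873, which is not shown and overlaps annotated exons by 166 bases, holds 26. The Mbd3 window holds 14. Of the 40 genes, 34 were matched to 46 such windows, with a median of 17 CpG sites compared with 6 over all 32851 windows of the table. Letters of the GC box (GGGCGG, either strand) occurred in 28 of the 46 windows (60.9%), compared with 32.7% of all windows, and partly overlap with CpG sites since they contain one. The E-box CACGTG occurred in 4 of 46 (8.70%) compared with 6.02%, and the cyclic AMP response element TGACGTCA in 0 of 46 compared with 1.55%, which says only that these letters are not in these windows. Mbd1, Mbd2, Hdac1, Hdac3, Hdac10 and Kdm6b had no entry.

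The TET dioxygenases oxidize methylated cytosine, and all 3 had a log2 fold change above 0 with a p that missed the threshold. Tet2 was at 27.0, 22.0, 25.6 and 37.2 CPM in CTR mice, and at 29.8, 42.4, 33.7 and 39.2 CPM after SS. CTR-5 lay above SS-2 and SS-4, and the other 3 CTR libraries lay below every SS library. Its log2 fold change was 0.38 (SE 0.18, 95% interval -0.023 to 0.77, edgeR's quasi-likelihood adjusted p = 0.755, exact permutation p = 0.114). Tet3, the most abundant of the family per kb, was at 43.6, 47.6, 35.5 and 58.8 CPM in the controls and at 51.3, 60.8, 59.7 and 49.1 CPM in the SS libraries. Here too CTR-5 reached into the SS range, above SS-2 and SS-5, and the other 3 CTR libraries lay below every SS library. The log2 fold change of Tet3 was 0.25 (SE 0.16, 95% interval -0.091 to 0.59), with edgeR's quasi-likelihood adjusted p = 0.782 and an exact permutation p of 0.143. Tet1 ranged from 6.2 to 23.5 CPM in CTR and from 17.8 to 24.5 CPM in SS, with CTR-1 lowest and CTR-5 highest of the CTR libraries and a log2 fold change of 0.55 (SE 0.31, 95% interval -0.14 to 1.23). Without CTR-5 the log2 fold changes were 0.88 for Tet1, 0.55 for Tet2 and 0.39 for Tet3, with edgeR's quasi-likelihood adjusted p = 0.218, 0.198 and 0.268. Without CTR-1 and CTR-2 they were 0.18, 0.21 and 0.23, each with an unadjusted p above 0.05. That of Tet1 was 0.30 without CTR-1, and that of Tet3 0.14 without CTR-3. Summed over the 3 genes the level was 76.8, 84.0, 75.1 and 119.5 CPM in the CTR libraries and 98.9, 128, 117 and 108 CPM in the SS libraries, so that CTR-5 again fell within the SS range.

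Of the methyl-CpG-binding proteins, Mbd3 was lower in every SS library. It is a subunit of the NuRD remodelling and deacetylase complex and, unlike Mbd1 and Mbd2, the mammalian protein does not bind methylated CpG selectively. Mbd3 was at 132, 98.4, 95.1 and 85.5 CPM among controls, and SS libraries had 82.0, 83.4, 76.4 and 82.0 CPM. CTR-1 stood well above the rest, and the gap between the lowest CTR library, CTR-5, and the highest SS library, SS-3, was narrow. With 103 ± 20.4 CPM for CTR and 81.0 ± 3.14 CPM for SS (SD of 4 libraries each), the log2 fold change was -0.34 (SE 0.13, 95% interval -0.63 to -0.054). It was lower in 4 of 4 SS libraries and did not pass the correction (edgeR's quasi-likelihood adjusted p = 0.755, exact permutation p = 0.0286). Without CTR-1 the log2 fold change was -0.20, and without CTR-1 and CTR-2 it was -0.16. Mbd1 and Mbd2, which bind methylated CpG and repress transcription, had log2 fold changes of 0.15 (SE 0.12, 95% interval -0.11 to 0.41) and -0.20 (SE 0.18, 95% interval -0.60 to 0.20). Without CTR-1 that of Mbd2 was -0.021, so most of it rests on this library. Their libraries overlapped, at 41.5 to 47.8 CPM in CTR and 43.8 to 55.5 CPM in SS for Mbd1, and at 29.4 to 53.2 and 27.8 to 37.1 CPM for Mbd2. Mbd4, a glycosylase that removes thymine left by deamination of methylated cytosine, ranged from 2.58 to 5.86 CPM in CTR and from 5.24 to 7.86 CPM in SS, and its log2 fold change came to 0.51 (SE 0.33, 95% interval -0.21 to 1.23), or 0.33 without CTR-1 and 0.21 without CTR-1 and CTR-2.

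Among the class I deacetylases, Hdac1, Hdac2 and Hdac3 are catalytic subunits of large nuclear corepressor complexes, and Hdac8 acts outside them. Hdac2 was at 96.5, 82.6, 82.1 and 82.8 CPM in CTR mice, and at 79.3, 84.9, 73.5 and 77.8 CPM after SS. CTR-1 alone was high, the other 3 CTR libraries were nearly equal, and SS-3 lay above those 3. The log2 fold change of Hdac2 was -0.12 (SE 0.10, 95% interval -0.35 to 0.099, edgeR's quasi-likelihood adjusted p = 0.832, exact permutation p = 0.114; -0.064 without CTR-1), so that a difference of more than 0.35 in either direction was outside the interval. Hdac3, a catalytic subunit of nuclear corepressor complexes and the most abundant of the class per kb, was at 137, 67.7, 93.8 and 98.0 CPM in the controls and at 101.7, 99.8, 111 and 117 CPM in the SS libraries. The CTR libraries held both the highest and the lowest value, and the SS libraries lay between them. Its log2 fold change was 0.12 (SE 0.17, 95% interval -0.26 to 0.50, edgeR's quasi-likelihood adjusted p = 0.913, exact permutation p = 0.514), and it was 0.31 without CTR-1 and -0.027 without CTR-2. Hdac1 ranged from 6.99 to 13.1 CPM in CTR and from 9.26 to 13.0 CPM in SS, and the X-linked Hdac8 from 7.68 to 18.1 and from 12.7 to 16.8 CPM, with log2 fold changes of 0.24 and 0.098. Hdac1 was at 0.11 without CTR-2 and 0.42 without CTR-5, and Hdac8 at 0.27 without CTR-1 and -0.094 without CTR-2.

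Class IIa deacetylases shuttle between nucleus and cytoplasm in response to signals and bind transcription factors of the MEF family. Hdac7 was at 39.2, 17.4, 34.5 and 35.6 CPM among controls, and SS libraries had 36.7, 49.5, 58.5 and 43.0 CPM. CTR-2 was far below all other libraries, SS-4 was the highest, and the groups overlapped only in that CTR-1 exceeded SS-2. The means were 31.7 ± 9.73 CPM for CTR and 46.9 ± 9.31 CPM for SS (SD of 4 libraries each), and the log2 fold change came to 0.57 (SE 0.23, 95% interval 0.059 to 1.08), the largest estimate among the 7 genes at an unadjusted p under 0.05 (edgeR's quasi-likelihood adjusted p = 0.755, exact permutation p = 0.0571). Without CTR-2 it was 0.37, a smaller value than with all libraries. Hdac5, the most abundant of the class per kb, was the steadiest of the 4 genes, at 213, 214, 207 and 201 CPM in CTR mice, and at 203, 198, 206 and 216 CPM after SS. The groups were fully intermixed. As a log2 fold change this was -0.021 (SE 0.078, 95% interval -0.19 to 0.15, edgeR's quasi-likelihood adjusted p = 0.972, exact permutation p = 0.571), so a difference of more than 0.20 in either direction was outside the interval. Hdac4 ranged from 43.3 to 58.8 CPM in CTR and from 42.9 to 49.2 CPM in SS and Hdac9 from 20.8 to 39.7 and from 26.5 to 30.7 CPM, with log2 fold changes of -0.13 and -0.076 and CTR-5 the highest library for both. Without CTR-5 they were -0.031 and 0.084.

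Hdac6, a tubulin deacetylase, and Hdac10, a polyamine deacetylase, make up class IIb, and Hdac11, which removes fatty acyl groups, is the only class IV member. Hdac11, the most abundant of all 40 genes per kb, was at 507, 422, 445 and 352 CPM in the controls and at 438, 427, 429.5 and 429.6 CPM in the SS libraries. The SS libraries were nearly equal and lay inside the wider CTR range, from CTR-5 at the bottom to CTR-1 at the top. For its log2 fold change the fit gave -0.0011 (SE 0.10, 95% interval -0.23 to 0.22), with edgeR's quasi-likelihood adjusted p = 0.999 and an exact permutation p of 0.857. The antisense annotations Gm44002 and Gm14573 share 15.4% and 2.49% of its exon bases and collected 605 and 162 counts over the 8 libraries, and whether reads were counted by strand is not stated in the sources used here. Hdac10 was at 9.25, 9.13, 10.5 and 11.1 CPM among controls, and SS libraries had 9.90, 12.5, 12.1 and 14.02 CPM. SS-2 fell within the CTR range and the other 3 SS libraries lay above every CTR library. The log2 fold change of Hdac10 was 0.28 (SE 0.19, 95% interval -0.14 to 0.70, edgeR's quasi-likelihood adjusted p = 0.801, exact permutation p = 0.0857), and that of Hdac6, at 67.1 to 101.7 CPM in CTR and 80.3 to 90.0 CPM in SS, was 0.056 (SE 0.13, 95% interval -0.23 to 0.34), with 0.18 without CTR-1 and -0.027 without CTR-2.

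The sirtuins remove acyl groups with NAD as a cosubstrate, and those with an unadjusted p under 0.05, Sirt3 and Sirt4, are mitochondrial enzymes that do not act mainly on histones. Sirt3, the main deacetylase of mitochondria, was at 53.5, 56.5, 54.9 and 40.5 CPM in CTR mice, and at 43.0, 38.4, 32.6 and 45.9 CPM after SS. CTR-5 lay below SS-2 and SS-5, and the other 3 CTR libraries lay above every SS library. The means were 51.3 ± 7.30 CPM for CTR and 39.98 ± 5.79 CPM for SS (SD of 4 libraries each), for a log2 fold change of -0.36 (SE 0.15, 95% interval -0.69 to -0.033, edgeR's quasi-likelihood adjusted p = 0.755, exact permutation p = 0.0857). Ric8a and Psmd13 on the opposite strand share 7.0% and 5.73% of the exon bases of Sirt3, so that without strand some reads cannot be told apart. Sirt4, which acts on mitochondrial metabolic enzymes, was at 9.46, 8.24, 10.2 and 14.1 CPM in the controls and at 13.5, 13.7, 16.5 and 15.02 CPM in the SS libraries. CTR-5 lay above SS-2 and SS-3, and the other 3 CTR libraries lay below every SS library. Its log2 fold change of 0.48 (SE 0.21, 95% interval 0.026 to 0.93) had edgeR's quasi-likelihood adjusted p = 0.755 and an exact permutation p of 0.0857. Without CTR-5 the estimates were -0.46 for Sirt3 and 0.66 for Sirt4, and without CTR-1 and CTR-2 they were -0.25 and 0.26.

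Sirt2, a mainly cytoplasmic deacetylase that is abundant in oligodendrocytes, was at 521, 478, 423 and 304 CPM among controls, and SS libraries had 372, 402, 441 and 389 CPM. CTR-1 was the highest and CTR-5 the lowest library, and the SS libraries lay between them. Summed markers of oligodendrocytes were also lowest in CTR-5, and the part of these cells in the values of Sirt2 was not tested. The fit put the log2 fold change at -0.11 (SE 0.14, 95% interval -0.41 to 0.20, edgeR's quasi-likelihood adjusted p = 0.903, exact permutation p = 0.686), and it was -0.0018 without CTR-1, -0.24 without CTR-5 and 0.14 without CTR-1 and CTR-2. The nuclear sirtuins Sirt1, Sirt6 and Sirt7 had log2 fold changes of 0.066, 0.16 and 0.28 with SE of 0.22, 0.22 and 0.29. These rest on single libraries, with 0.17, 0.34 and 0.53 without CTR-1 and -0.058, 0.016 and 0.032 without CTR-2. Sirt7 spanned 11.3 to 37.9 CPM in CTR, with CTR-2 lowest and CTR-1 highest, and 24.1 to 35.9 CPM in SS. Sirt5, a mitochondrial desuccinylase, ranged from 4.57 to 11.5 CPM in CTR and from 9.57 to 15.3 CPM in SS, and its log2 fold change came to 0.59 (SE 0.30, 95% interval -0.062 to 1.24), or 0.38 without CTR-2 and 0.18 without CTR-1 and CTR-2. Its level is uncertain, since 31.9% of its windows also occur in other genes such as Xpnpep1.

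Among the acetyltransferases, Kat2a and Kat2b are paralogs of the Gcn5 family, and Crebbp and Ep300 are coactivators that bind phosphorylated CREB. Kat2a, the most abundant of them per kb, was at 80.8, 49.5, 73.4 and 69.9 CPM in CTR mice, and at 74.3, 80.3, 75.6 and 85.5 CPM after SS. CTR-2 was far below the others, and CTR-1 lay above 3 of the SS libraries. SS relative to CTR gave a log2 fold change of 0.21 (SE 0.14, 95% interval -0.11 to 0.52, edgeR's quasi-likelihood adjusted p = 0.802, exact permutation p = 0.171), and without CTR-2 it was 0.081. Crebbp and Kat2b had estimates next to 0, of 0.0022 (SE 0.15) and 0.0012 (SE 0.18), and CTR-1 was the lowest library for both. Without CTR-1 they were -0.13 and -0.14, and without CTR-2 0.070 and 0.16. Ep300 showed how far 1 library can set an estimate. It had 22.8 CPM in CTR-1, 82.3, 66.7 and 75.05 CPM in the other CTR libraries and 78.5, 83.6, 90.3 and 68.0 CPM in the SS libraries. The estimate on the log2 scale was 0.37 (SE 0.30, 95% interval -0.27 to 1.02) over all libraries and 0.10 without CTR-1.

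Polycomb repressive complex 2 methylates histone H3 and is built from the alternative catalytic subunits Ezh1 and Ezh2 with Eed and Suz12. Ezh1, which prevails in cells that have stopped dividing, was at 54.3, 67.9, 66.7 and 72.0 CPM in the controls and at 75.7, 71.8, 62.8 and 75.1 CPM in the SS libraries. CTR-1 was the lowest library, and SS-4 lay below the other 3 CTR libraries. The log2 fold change of Ezh1 was 0.13 (SE 0.12, 95% interval -0.13 to 0.39, edgeR's quasi-likelihood adjusted p = 0.86, exact permutation p = 0.343), and without CTR-1 it was 0.052. Suz12, which the complex needs for its activity, was at 25.9, 26.6, 24.1 and 35.1 CPM among controls, and SS libraries had 34.6, 30.2, 32.2 and 31.8 CPM. CTR-5 was the highest of all 8 libraries and the other 3 CTR libraries lay below every SS library. As a log2 fold change this was 0.20 (SE 0.15, 95% interval -0.12 to 0.53, edgeR's quasi-likelihood adjusted p = 0.814, exact permutation p = 0.143), with 0.34 without CTR-5 and 0.13 without CTR-3. Ezh2, the form of dividing cells, was at 3.84 to 11.2 CPM in CTR and 5.39 to 9.47 CPM in SS, and Eed, which binds the methylated histone, at 8.38 to 15.4 and 8.20 to 10.9 CPM. Their log2 fold changes were 0.17 (SE 0.35, 95% interval -0.59 to 0.93) and -0.19 (SE 0.23, 95% interval -0.69 to 0.32). Both directions turn on 1 library, since without CTR-2 they were -0.021 and 0.018, and that of Ezh2 was 0.53 without CTR-1.

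Ehmt1 and Ehmt2 form a heteromer that places methyl groups on lysine 9 of histone H3 (H3K9). Ehmt2, the more abundant per kb, was at 162, 194, 188 and 173 CPM in CTR mice, and at 181, 171, 172 and 207 CPM after SS. The groups were intermixed, with CTR-1 lowest and SS-5 highest. For its log2 fold change the fit gave 0.025 (SE 0.099, 95% interval -0.19 to 0.24, edgeR's quasi-likelihood adjusted p = 0.974, exact permutation p = 0.8). Ehmt1 was at 19.8, 32.2, 31.6 and 34.1 CPM in the controls and at 33.8, 32.3, 34.99 and 37.2 CPM in the SS libraries. CTR-1 was far below the rest, and CTR-5 lay above SS-2 and SS-3. With a log2 fold change of 0.23 (SE 0.17, 95% interval -0.14 to 0.60), Ehmt1 had edgeR's quasi-likelihood adjusted p = 0.816 and an exact permutation p of 0.114. Without CTR-1 its estimate was 0.084.

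Of the histone demethylases, Kdm6b, a dioxygenase that removes the methyl groups placed by Polycomb repressive complex 2 and an inducible gene in many cells, was higher in every SS library. Kdm6b was at 53.3, 37.9, 55.5 and 47.4 CPM among controls, and SS libraries had 61.98, 60.7, 61.6 and 71.6 CPM. CTR-2 was the lowest library, SS-5 stood above the other 3 SS libraries, and the groups did not overlap. The means were 48.5 ± 7.85 CPM for CTR and 64.0 ± 5.14 CPM for SS (SD of 4 libraries each), and the log2 fold change came to 0.40 (SE 0.14, 95% interval 0.10 to 0.70). It was higher in 4 of 4 SS libraries without passing the correction (edgeR's quasi-likelihood adjusted p = 0.741, exact permutation p = 0.0286), and it kept an unadjusted p under 0.05 in each of the 8 fits without 1 library, with estimates from 0.30 without CTR-2 to 0.47 without CTR-3. Without both CTR-5 and SS-5 the estimate was 0.33 and the unadjusted p was above 0.05. Kdm1a, a flavin-dependent demethylase of the CoREST complex, was at 58.2, 93.9, 65.0 and 71.7 CPM in CTR mice, and at 76.3, 66.5, 71.5 and 75.02 CPM after SS. The CTR libraries again held both ends of the range, with CTR-1 lowest and CTR-2 highest. The fit put the log2 fold change at 0.0017 (SE 0.14, 95% interval -0.31 to 0.32), with edgeR's quasi-likelihood adjusted p = 0.999 and an exact permutation p of 0.886.

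**Figure D3:**
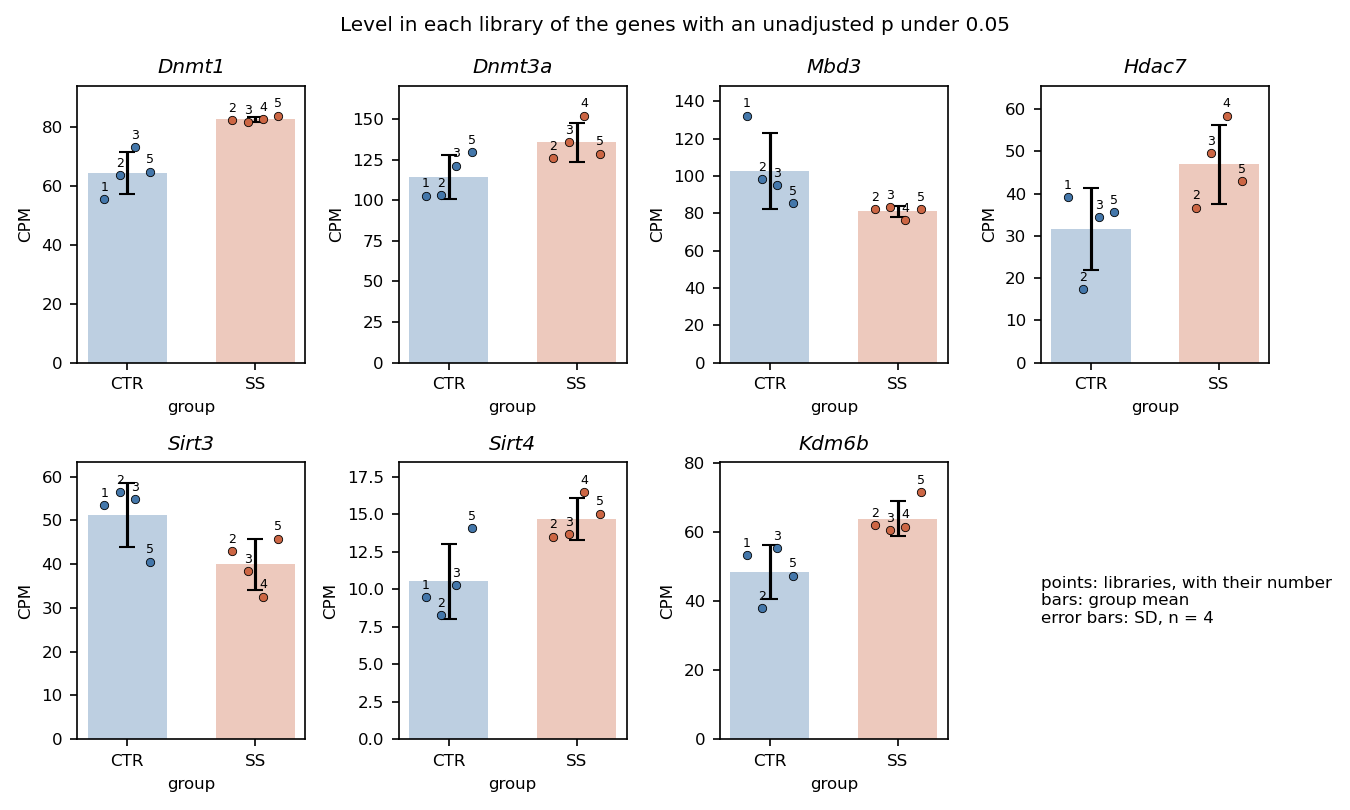
CPM of each library (points, with the library's number), group mean (bars) and SD (error bars, n = 4) for the 7 genes with an unadjusted p under 0.05. SS and CTR points are separate for Dnmt1, Mbd3 and Kdm6b, and CTR-5 lies among the SS points for Dnmt3a, Sirt3 and Sirt4.

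The same few CTR libraries recurred across genes of unlike function. CTR-2 was the lowest library for 16 of the 40 genes and CTR-1 for 12, while CTR-1 was also the highest for 11 and SS-5 for 10. In CTR-2, 13 genes were more than 1.5-fold below the median of the other 7 libraries, among them Hdac7, Hdac8, Sirt7 and Ezh2, compared with 5 in CTR-1 and at most 1 in any of the other 6. In CTR-1, genes with longer transcripts tended to be lower. Over the 40 genes, Spearman's rho between the deviation in CTR-1 and the length of the longest transcript was -0.50 (n = 40 genes of 1 library, which are not independent), and over all 16488 genes with a length it was -0.29. Ep300 and Tet1, with transcripts of 9566 and 14369 bases, were at 0.291 and 0.318 of the median of the other libraries there, whereas Mbd3, with 1662 bases, was at 1.59. In CTR-2 the corresponding rho was 0.19 over the 40 genes and -0.031 over all genes, so length did not order the genes there. Elsewhere rho over the 40 genes was -0.16 in CTR-3 and 0.31 in CTR-5, and 0.058, 0.45, 0.37 and -0.11 among the SS libraries, so that longer genes tended to be higher in CTR-5, SS-3 and SS-4. RNA quality values were not used here, and the part of transcript length in the results was not tested beyond the fit with offsets for GC content and length, which left the median log2 fold change of the 40 genes at 0.16 and the count at an unadjusted p under 0.05 at 7, beside 7.77% of all genes, with Tet1 in the place of Dnmt3a.

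**Figure D4:**
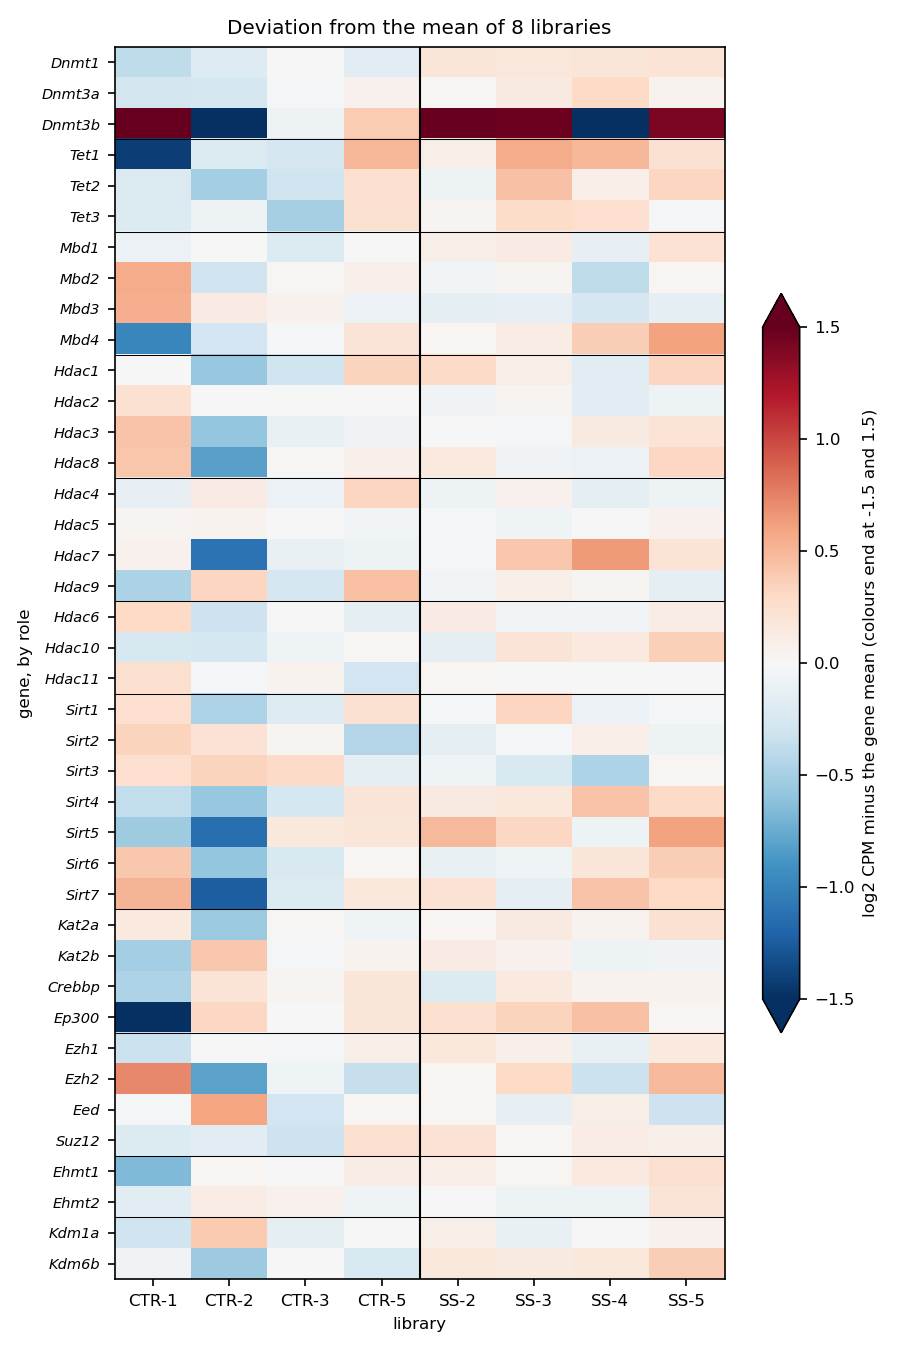
Deviation of each of the 40 genes in each library from its mean over 8 libraries, in log2 CPM, with genes ordered by role and a line between the 4 CTR and the 4 SS libraries. The strongest colours outside Dnmt3b are in CTR-1 (Tet1, Ep300) and CTR-2 (Hdac7, Sirt5, Sirt7), and the SS columns are paler.

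**Figure D5:**
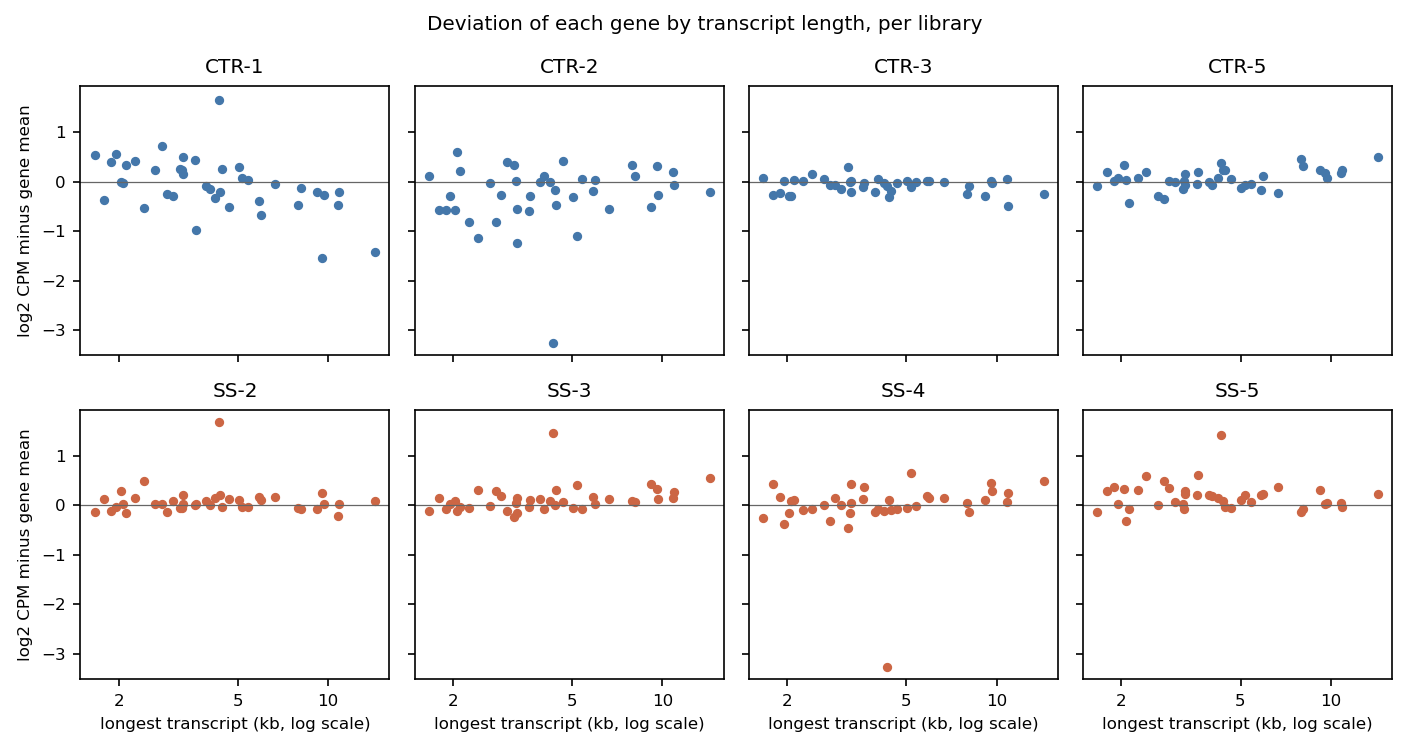
Deviation of each of the 40 genes from its mean over 8 libraries (log2 CPM) against the length of its longest transcript (kb, log scale), 1 panel per library. Longer genes lie lower in CTR-1 (rho -0.50) and no such slope is seen in CTR-2 (rho 0.19), and the single far point in several panels is Dnmt3b.

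The spread between libraries was larger among controls. The coefficient of variation was larger in CTR than in SS for 35 of the 40 genes (87.5%), with a median of 21.9% in CTR and 9.56% in SS. The same held for 82.9% of all genes tested, with medians of 25.5% and 13.3%, so the members were close to the background in this respect. Hdac5 varied least in CTR, at 2.78%, and Hdac11 least in SS, at 1.11%.

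Leaving out libraries moved the counts in both directions. Without CTR-5, 13 of the 40 genes had an unadjusted p under 0.05, beside 13.4% of all genes, and 12 of 40 did not overlap between groups, beside 15%. These 12 were Dnmt1, Dnmt3a, Tet1, Tet2, Tet3, Mbd4, Sirt4, Suz12, Ehmt1 and Kdm6b, higher in SS, and Mbd3 and Sirt3, lower in SS. Without CTR-5 and SS-5, the libraries with Xist, the counts were 9 of 40 at an unadjusted p under 0.05 beside 10.6%, and 12 of 40 without overlap beside 20.1%. Without CTR-1 and CTR-2, only Dnmt1, Hdac7 and Kdm6b, 3 of 40, had an unadjusted p under 0.05 beside 6.34%, and their log2 fold changes were 0.26, 0.42 and 0.32. The count at an unadjusted p under 0.05 was also lower without CTR-2 (4 of 40, beside 5.68% of all genes), without SS-3 (3, beside 3.76%) and without SS-4 (3, beside 3.53%). The count without overlap was 6 without CTR-1, beside 8.74%, and 5 without SS-2, beside 7.69%. Without SS-4 it was 6, beside 6.75%, when normalization was repeated on the 7 libraries, and 5 with the normalization of all 8. In none of these fits did any of the 40 genes pass the adjusted threshold in edgeR's test, and the median log2 fold change of the 40 stayed between 0.096 and 0.19.

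A wider list of 98 chromatin genes gives the surroundings of the 40 members. It holds partners of the same complexes and the other families of histone enzymes, all 98 were tested, and 0 passed the threshold in edgeR's test. At an unadjusted p under 0.05 there were 8 of 98 (8.16%, close to the background of 6.55%), all of them higher in SS, where the background is 2.85%. Among them were Gatad2a, a NuRD subunit like Mbd3, with a log2 fold change of 0.35 (SE 0.14), the H3K4 methyltransferases Kmt2a and Setd1a with 0.37 (SE 0.14) and 0.65 (SE 0.29), the methyltransferases Setd2, Dot1l and Setdb1 with 0.43 (SE 0.15), 0.51 (SE 0.19) and 0.34 (SE 0.15), and the demethylase Phf8 with 0.39 (SE 0.16). Phf8 was at 21.7, 25.2, 31.4 and 33.4 CPM in the CTR libraries and 38.7, 38.7, 35.9 and 33.5 CPM in the SS libraries, which did not overlap by a narrow margin. CTR-1 and CTR-2 were the lowest libraries for Phf8, Setd2, Dot1l and Setdb1. Only 3 of the 98 genes (3.06%), Mbd5, Cbx7 and Phf8, had no overlap between groups, compared with 4.67% of all genes. The log2 fold change was above 0 for 73 of the 98 (74.5%), with a median of 0.13, a share like that of the 40 members.

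Sex-linked demethylases of the wider list showed in which libraries the label was contradicted. Kdm5d and Uty, on the Y chromosome, had 1 and 0 counts in CTR-5 and 0 counts each in SS-5, compared with 401 to 1419 counts of Kdm5d and 191 to 571 counts of Uty in the other 6 libraries. Of their X-linked partner genes, which escape inactivation, Kdm5c was clearly highest in the same libraries and Kdm6a only in CTR-5. Kdm5c was at 71.8 CPM in CTR-5 and 68.5 CPM in SS-5 and at 25.6 to 52.8 CPM elsewhere, and Kdm6a was at 35.04 and 26.6 CPM there and at 7.13 to 26.5 CPM elsewhere. Each group holds 1 such library, and the log2 fold changes of Kdm5c and Kdm6a were 0.16 (SE 0.25) and 0.14 (SE 0.35). Of the members, Hdac6 and Hdac8 are on the X chromosome, and neither was highest in CTR-5 or SS-5. With the presence of Xist as a covariate, 8 of the 40 genes had an unadjusted p under 0.05, beside 6.62% of all genes, and 0 passed the adjusted threshold in edgeR's test, beside 19 of 16538 genes.

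Cell type markers were read in the same libraries, since punches mix cells that differ in their chromatin enzymes. The VTA label was borne out by dopamine neuron markers in CTR. In SS these markers were far lower, so they do not bear out the label there to the same degree. Summed over Th, Slc6a3, Ddc, Slc18a2 and Aldh1a1, none of which is at 0, their level was 1793, 1103, 790.6 and 1646 CPM in the CTR libraries and 172, 162, 164 and 218 CPM in the SS libraries, and 5 of 5 passed the threshold in edgeR's test. Slc6a3 had the highest mean of the 5 in CTR, at 447.6 CPM, and the lowest in SS, at 6.19 CPM. The 5 general neuron markers, led by Snap25, summed to 4192, 4288, 3992 and 4430 CPM in CTR and 3606, 3463, 3299 and 3284 CPM in SS, and 3 of 5 had an unadjusted p under 0.05, all lower in SS. Dnmt1 and Kdm6b, which are higher in SS, and Mbd3, which is lower, thus stand beside lower neuronal markers, and the part of cell composition in their values was not tested. Summed markers of astrocytes were 845 ± 82.9 and 847 ± 46.5 CPM in CTR and SS (SD, n = 4 each), those of microglia 184 ± 33.9 and 165 ± 10.3 CPM, those of endothelial cells 160 ± 11.7 and 161 ± 21.8 CPM and those of GABA neurons 436 ± 19.4 and 472 ± 92.8 CPM. Markers of oligodendrocyte precursors summed to 512 ± 64.1 and 480 ± 24.0 CPM, of mural cells to 167 ± 26.7 and 184 ± 11.7 CPM and of blood to 57.3 ± 17.8 and 53.3 ± 6.70 CPM. Those of dividing cells summed to 28.5 ± 3.48 and 27.8 ± 2.26 CPM, of excitatory neurons to 593 ± 208 and 492 ± 28.4 CPM and of ependyma and choroid plexus to 80.3 ± 113 and 23.4 ± 2.10 CPM. Within some of these sums the genes differed in direction. Of the precursor markers, Olig1 was lower in SS (414.5 and 361.3 CPM), but Pdgfra (64.2 and 82.0 CPM) and Cspg4 (33.4 and 36.4 CPM) were higher. Of the excitatory markers, Slc17a6 was higher (385.7 and 442.8 CPM), and Slc17a7 and Neurod6 were lower. Most of the dividing-cell sum is Pcna (25.4 and 23.1 CPM), lower in SS, while Mki67 (1.59 and 2.73 CPM) and Top2a (0.945 and 1.38 CPM) were higher. In none of these lists did a marker pass the threshold in edgeR's test. Nor did any oligodendrocyte marker, the sum of which was lowest in CTR-5 and is not given here. An unadjusted p under 0.05 was reached by Slc17a7, Neurod6, Cx3cr1 and Ttr. Their group means were lower in SS, but for Ttr and Neurod6 the high mean of CTR comes from CTR-5, and CTR-1 and CTR-2 lay below every SS library for Ttr.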

How the data were processed

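Raw counts per gene were used from 4 CTR and 4 SS libraries, assigned to groups by their labels. The authors deposited these counts, which htseq-count made from STAR alignments to mm10 after trimming by Cutadapt, with an Ensembl annotation and no normalization. Library totals ranged from 20036086 to 47319997 counts. Genes were kept with filterByExpr of edgeR 4.0.16 in R 4.3.3 (minimum count 10, minimum total count 15) and compared after TMM normalization with glmQLFit and glmQLFTest, on a design of group alone, and p was adjusted after Benjamini-Hochberg over 16538 genes, with 0.05 as threshold. The common biological coefficient of variation was 0.384. Intervals of 95% follow from the SE and the fit's degrees of freedom. For single genes, log2 CPM (prior count 2) was permuted over all 70 assignments for an exact p. The p-values of edgeR weigh the difference between groups against the spread between libraries, which is estimated with the help of all genes. The study assigned whole litters to a group and used up to 2 mice per sex from a litter. The labels name no litter, and all tests here treat the libraries as independent. On simulated counts with 200 changed genes above 5 CPM, the fit made 179 calls, of which 8 were false and none had the wrong sign. It found 98 of 100 genes with a log2 fold change of 2 in size and 73 of 100 with 1. Smaller changes were not simulated. Both shares belong to a table with 179 calls. In the study's libraries the fit called 14 genes. Over all genes tested, the median coefficient of variation there was 25.5% in CTR and 13.3% in SS. The share of changed genes found under those conditions was not tested.

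The members and lists were chosen with earlier results of these data known. Values in every library are given for members with an unadjusted p under 0.05 or no overlap between groups and for the member with the smallest p and the most abundant one per kb of each role. Of the wider list, genes with an unadjusted p under 0.05 (not all of them) and 4 sex-linked demethylases are named. Mbd5, Cbx7, Ep300 and the values singled out for other members were chosen after their values were seen. Exon lengths, GC content and overlaps are from GENCODE M21 on GRCm38, and the annotation used by the authors was not used here.

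Alternatives were DESeq2 1.42.0, voom of limma 3.58.1, DESeq2's size factors, upper-quartile normalization, no filter, a mean count of at least 50, fits without 1 library, a block for the replicate number, leaving out CTR-5 and SS-5 or CTR-1 and CTR-2, and a covariate for Xist. The bias-adjusted quasi-likelihood estimate, the block's 6 libraries with the group alone, and offsets for GC content and length (loess span 0.5) were added after seeing the data. A form of the offsets that was not centred was tried first. It moved the median of all genes and was replaced by offsets centred on their median in each library, so that the scaling stayed that of TMM.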

Additional observations from a re-analysis of the deposited data

Results flagged for a closer look

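A library was marked when its distance from the next one took up most of the spread among the 4 libraries of its group, as a ratio above Dixon's 95% limit. Of 104 groups, formed by the 40 members and 12 genes of the wider list in CTR and in SS, 4 passed it. Chance flags about 1 in 20 groups, that is 5.2 here, so the number of such values was not above what chance gives.

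Hdac2 had a ratio of 0.952 in CTR, where CTR-1 at 96.5 CPM stood above the other 3 libraries at 82.1 to 82.8 CPM. Sirt1 had a ratio of 0.861 in SS, where SS-3 lay above the other 3 libraries, which were nearly equal. Kdm6b had a ratio of 0.881 in SS, where SS-5 at 71.6 CPM stood above 60.7 to 61.98 CPM, and its log2 fold change was 0.34 without SS-5. For Uty the ratio was 0.842 in SS, where SS-5 had no count. CTR-5 had no count of Uty either, but the other CTR libraries were spread too widely for the ratio to pass the limit. Of 80 groups formed by the members alone, 3 passed, where chance gives 4.0.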

How the results depend on the processing

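The count of 0 members past the adjusted threshold held in all 21 alternatives, and the median log2 fold change of the 40 genes stayed above 0 in each of them, with 0.096 to 0.19 over the fits without 1 library, 0.12 without CTR-1 and CTR-2, and 0.21 at most. Of the 21 members chosen by rule to be given in every library, 15 kept the sign of their log2 fold change in every alternative, among them the 7 with an unadjusted p under 0.05.

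Genes called over the whole table were 14 with edgeR, 81 with DESeq2's default options, 22 without a filter, 22 at a mean count of at least 50, 9 without CTR-5 and SS-5 and 6 to 19 without 1 library. Members with an unadjusted p under 0.05 were 7 (beside 6.55% of all genes), 3 to 13 without 1 library (3.53% to 13.4%) and 3 without CTR-1 and CTR-2 (6.34%). Members without overlap between groups were 3 (4.67%), 3 to 12 without 1 library (6.37% to 15%), 12 without CTR-5 and SS-5 (20.1%) and 6 without CTR-1 and CTR-2 (14.7%), where fewer libraries per group make separation more frequent for all genes too. Of the alternatives chosen after seeing the data, the bias-adjusted estimate called 27 genes.

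The numbers 2, 3 and 5 occur in both groups. Deviations of same-numbered libraries correlated at 0.018, -0.010 and 0.017, and each correlation with another number was of similar size. The libraries with Xist, CTR-5 and SS-5, share a number. Whether the numbers stand for a shared litter or batch was not tested. With the number as a replicate block over those 6 libraries, 9 genes were called and 7 members had an unadjusted p under 0.05 (beside 4.48% of all genes), compared with 7 genes and 3 members (5.04%) for the same 6 libraries with the group alone.

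Over all 40 members, 15 changed sign in at least 1 alternative, and none of them had an adjusted p under 0.05 in any. Of these, 9 are not among the 21, with ranges over all alternatives of -0.32 to 0.077 for Mbd2, -0.027 to 0.21 for Hdac6, -0.094 to 0.37 for Hdac8, -0.23 to 0.12 for Hdac9, -0.058 to 0.24 for Sirt1, -0.14 to 0.16 for Kat2b, -0.14 to 0.074 for Crebbp, -0.058 to 0.68 for Ezh2 and -0.30 to 0.051 for Eed. The other 6 follow. Hdac11 was at -0.0011, with -0.087 to 0.087 over fits without 1 library, 0.029 with voom, 0.0076 without a filter, 0.097 with the replicate block, 0.090 for the same 6 libraries with the group alone, 0.0075 with the covariate, 0.12 without CTR-1 and CTR-2, 0.0024 with the bias-adjusted estimate and 0.024 with offsets. Kdm1a was at 0.0017, with -0.087 to 0.15 over fits without 1 library, -0.0017 with DESeq2's size factors, -0.010 at a mean count of at least 50, -0.065 with the replicate block, -0.080 for the same 6 libraries with the group alone, -0.021 without CTR-5 and SS-5 and -0.0068 with the bias-adjusted estimate. Ehmt2 was at 0.025, with -0.037 to 0.067 over fits without 1 library and -0.057 without CTR-5 and SS-5. Hdac3 was at 0.12, with -0.027 to 0.31 over fits without 1 library. Without CTR-1 and CTR-2, Hdac5 went from -0.021 to 0.011 and Sirt2 from -0.11 to 0.14. The cause of these changes was not tested.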

Other observations

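The values are transcript levels in punches of mixed cells, and neither methylation, histone marks nor protein were measured. With 4 libraries per group, an exact permutation p cannot go below 0.029. CTR libraries differed from each other more than SS libraries did, and many estimates rest on 1 of CTR-1, CTR-2 and CTR-5. A pair of libraries carry Xist against their label. Levels per kb use all annotated exons of a gene, which overstates the length where short transcripts prevail. Hdac1, Sirt5 and Hdac11 share sequence with other annotated genes. An adjusted p above the threshold does not show that a gene was equal in both groups.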
